A study of Mus musculus with 24 samples.

Results

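The 10 genes described here encode proteins that are made in response to ERK signalling and that act back on it, or that transmit it to transcription. They are the dual-specificity phosphatases Dusp4, Dusp5 and Dusp6, the Sprouty genes Spry1, Spry2 and Spry4, the Sprouty-related genes Spred1 and Spred2, and the ETS transcription factors Etv4 and Etv5. They were chosen by gene symbol from the 55487 genes of the merged count table, and all 10 were among the 15401 genes with enough reads to be tested. RNA-seq had been performed on 24 libraries of mouse embryonic fibroblasts (MEFs), which are cells grown from mouse embryos. The cells were either wild type (WT) or labelled as lacking both Tfeb and Tfe3 (tfeb tfe3 DKO, written DKO below), 2 related transcription factors that drive lysosomal and autophagy genes. Each genotype had been given vehicle (0.1% DMSO), the MTOR kinase inhibitor torin1 (100 nM) or the AMPK activator MK-8722 (10 µM), with 4 libraries in each of the 6 groups, and the time of treatment before sequencing was not given in the sources used here. No other allele or agent is named for any group. The WT and DKO cells were separate lines, so a difference between genotypes and a difference between lines cannot be told apart. Each line was sampled at 4 passages, once with each treatment, and the 4 values of a group are given below in the order of passages 7, 8, 9 and 11 for WT and 8, 9, 10 and 11 for DKO.

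ERK1 and ERK2 are the last kinases of a relay that runs from growth factor receptors through RAS, RAF and MEK. Active ERK switches on genes whose products dampen the same relay, so the mRNA of these genes is widely read as a measure of pathway output. DUSP phosphatases remove phosphate from ERK itself, DUSP6 in the cytoplasm and DUSP4 and DUSP5 in the nucleus. Sprouty and SPRED proteins act upstream, at the level of receptors, RAS and RAF, and ETV4 and ETV5 belong to the PEA3 group of ETS factors that are induced downstream of growth factor receptors.

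In WT cells MK-8722 raised 4 of the 10 genes, Dusp4, Dusp5, Spry2 and Spry4, and lowered none. Across all genes tested, 10.3% rose and 16.1% were called in either direction in that comparison. A gene was called where edgeR's quasi-likelihood test gave a Benjamini-Hochberg adjusted p under 0.05 over all genes tested and the fold change was at least 1.2. In DKO cells MK-8722 moved none of the 10 past those thresholds, against 8.69% of all genes, and 1 of the 10 (Dusp5) had an unadjusted p under 0.05. Torin1 gave calls in both directions. In WT Dusp4 rose and Dusp5 fell, 2 of the 9 genes other than Spry1, where 47.1% of all genes were called. In DKO Dusp5, Spry2 and Etv4 rose and Spry4 fell, where 43.2% were called. Spry1 was also called higher with torin1 in WT, but it had enough reads to be tested only through drug-treated WT libraries. In a fit with passage as a block 5 were called with torin1 in WT, Spry1 among them, against 49.7% of all genes. The block also added Dusp6 and Etv4, both higher, with MK-8722 in WT, and Dusp6, higher, with torin1 in DKO. For those comparisons the share of all genes called with the block was not counted. Both drug comparisons within a genotype used the same 4 DMSO libraries.

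Upstream sequences are shown for Dusp5, Dusp6 and Spry2, which encode nuclear and cytoplasmic phosphatases and a Sprouty. They are 3 of the 5 members, with Spred2 and Etv4, that were higher than vehicle at all 4 passages both with MK-8722 in WT and with torin1 in DKO. The sequences come from the RefSeq promoter table for GRCm38.p6, which matched 7 of the 10 members in 8 windows (Etv5 had 2). Positions count back from the RefSeq transcription start, with -1 the base before it, and each stretch ends before the first base of the gene in GENCODE M21. Dusp5 is shown from -250 to -37, chr19:53528895-53529108, plus strand. Dusp6 is shown from -250 to -1, chr10:99262981-99263230, plus strand. Spry2 is shown from -250 to -1, chr14:105896820-105897069, minus strand. Capitals mark matches to the motifs searched.
Dusp5: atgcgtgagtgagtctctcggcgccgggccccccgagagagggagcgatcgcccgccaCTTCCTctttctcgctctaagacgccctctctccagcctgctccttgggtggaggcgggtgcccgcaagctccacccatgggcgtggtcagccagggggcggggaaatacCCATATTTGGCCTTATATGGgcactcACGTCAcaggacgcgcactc
Dusp6: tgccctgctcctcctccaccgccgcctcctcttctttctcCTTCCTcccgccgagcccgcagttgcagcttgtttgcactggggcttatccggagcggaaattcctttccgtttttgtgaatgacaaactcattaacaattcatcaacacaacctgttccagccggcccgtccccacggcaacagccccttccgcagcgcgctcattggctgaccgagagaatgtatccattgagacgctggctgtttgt
Spry2: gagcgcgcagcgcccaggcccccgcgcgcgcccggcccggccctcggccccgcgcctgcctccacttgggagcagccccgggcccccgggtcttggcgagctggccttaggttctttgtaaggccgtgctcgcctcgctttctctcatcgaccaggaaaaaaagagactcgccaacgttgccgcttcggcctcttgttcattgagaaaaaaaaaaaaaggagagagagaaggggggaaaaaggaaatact

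Motifs were searched on both strands of the 250 bases before each RefSeq start. Dusp5 held 2 adjacent CArG boxes, the site bound by serum response factor, at -82 to -73 and -72 to -63, and 1.467% of all 32851 promoter windows held at least 1. It also held the cyclic AMP response element core TGACGT, read on the other strand as ACGTCA at -56 to -51 (6.469% of all windows), and the PEA3 core AGGAAG, read as CTTCCT at -192 to -187 (29.48%). The Dusp6 window had 1 PEA3 core at -210 to -205, and that of Spred2 had 2 PEA3 cores and 1 TGACGT. No match was found in the windows of Spry1, Spry2, Spred1 or Etv5. The E-box core CACGTG of TFEB and TFE3 sites (6.021% of all windows), the ETS core CCGGAA (12.03%) and the AP-1 site TGACTCA (4.463%) were in none of the 8 windows. Dusp4, Spry4 and Etv4 had no window, so they were not searched for any motif. No 2 matches overlapped. These are matches of letters and were not tested as binding sites.

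The libraries held 24668921 to 33332562 estimated gene counts each (median 27988364), and RNA integrity numbers in the labels ran from 7.9 to 9.9. Tfeb fell from 22.9 ± 1.74 CPM (counts scaled to the TMM-adjusted library total; SD, n = 4) in WT with DMSO to 2.25 ± 0.289 in DKO with DMSO, with no overlap between the groups. Tfe3 stood at 120 ± 1.17 CPM in WT and 124 ± 2.11 in DKO with DMSO (adjusted p = 0.279). The lesion in Tfe3 was not given in the sources used here, and a count over the whole gene does not check it. All 8 fibroblast markers reached 1 CPM in at least 1 library of each WT group, with a summed level of 4292 to 7678 CPM. In each DKO group 7 of 8 did, and Thy1 was at or near 0. Markers of other cell types were low, with summed levels of at most 2.65 CPM for 4 epithelial, 1.37 for 4 endothelial and 0.701 for 4 blood genes, and the macrophage marker Adgre1 was at 0 in every library. In bulk cultures fewer cells making a transcript and less transcript per cell cannot be told apart.

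Per unit of transcript length Etv4 was the most abundant of the 10 in every group, from 73.3 ± 7.65 TPM (the length-scaled unit of the deposited tables; SD, n = 4) in DKO with DMSO to 142 ± 20.1 in WT with MK-8722. In WT with DMSO it was followed by Dusp5 at 38.1 ± 4.45 TPM, Spred2 at 28.1 ± 2.63 and Etv5 at 21.4 ± 4.48. Spred1 (15.4 ± 0.981 TPM), Dusp6 (14.1 ± 2.27) and Spry2 (11.6 ± 1.03) came next, and Spred1 and Dusp6 differed by less than the SD of Dusp6. Dusp4 (2.87 ± 0.341 TPM), Spry4 (0.558 ± 0.0902) and Spry1 (0.140 ± 0.0675) were the least abundant, in that order. Spry4 and Spry1 were the last 2 in all 6 groups. In WT with torin1 their levels, 0.396 ± 0.0989 and 0.336 ± 0.0916 TPM, differed by less than either SD. The Etv4 value depends on how its reads were assigned among 12 annotated transcripts, including 1 of 672 bases with 9.28% of them. In CPM, which is not scaled for length, Dusp5 was above Etv4 in DKO with DMSO (63.3 ± 7.05 against 60.9 ± 7.21). It was also above Etv4 in DKO with MK-8722 (75.4 ± 6.74 against 69.4 ± 5.59) and below it in every other group.

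**Figure D1:**
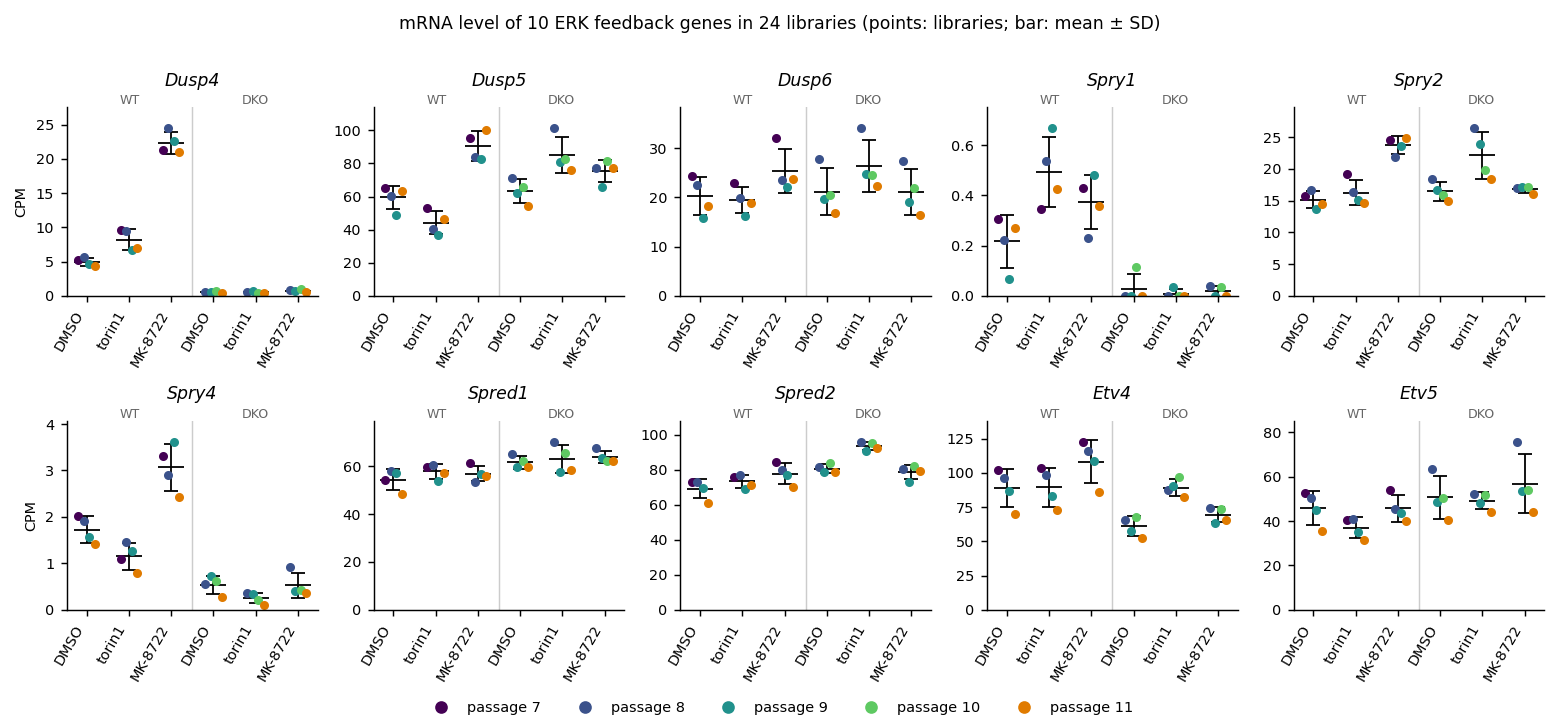
Level of each gene in CPM (y axis, from 0) in the 24 libraries, by genotype and treatment (x axis). Points are libraries coloured by passage, and the black bars are the mean ± SD of 4 libraries. Dusp4 stands highest in the 4 WT libraries with MK-8722 (20.96 to 24.5 CPM) and is below 1 CPM in all 12 DKO libraries.

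Dusp4, the nuclear phosphatase encoded at chr8:34807297-34819894 (GRCm38, plus strand), had the largest fitted effect of MK-8722 in WT among the 10. With DMSO the WT libraries held 5.32, 5.67, 4.60 and 4.40 CPM, and with MK-8722 they held 21.3, 24.5, 22.7 and 20.96 CPM. The groups did not overlap, and the fitted log2 fold change was 2.16 (SE 0.13, adjusted p = 2.36e-11), or 4.47-fold. Torin1 gave 9.69, 9.49, 6.67 and 7.05 CPM, again above every vehicle library, a log2 fold change of 0.72 (SE 0.13, adjusted p = 7.12e-05). The torin1 libraries lay below the MK-8722 libraries without overlap (log2 difference -1.44, SE 0.13, adjusted p = 2.28e-09). The summed level of the 4 endothelial markers moved with the same groups, from 0.170 to 0.391 CPM with DMSO to 0.667 to 1.13 with torin1 and 0.967 to 1.37 with MK-8722, and lay between 0.120 and 0.385 in all DKO libraries. That of the 4 epithelial markers was 0.753 to 1.23 CPM with DMSO, 1.57 to 2.65 with torin1 and 0.959 to 1.63 with MK-8722 in WT, and at most 0.395 in DKO. None of the 8 markers was at 0 in all libraries of a WT group. At most 1 of each 4 reached 1 CPM in any library of a WT group, and their part in the result was not tested.

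In DKO cells Dusp4 was nearly absent. The DMSO libraries held 0.640, 0.602, 0.691 and 0.411 CPM, from 12 to 18 counts each, 8.54-fold less than WT (log2 -3.09, SE 0.19, adjusted p = 1.99e-12). The gap was wider with torin1 (log2 -3.88, SE 0.18) and with MK-8722 (log2 -4.81, SE 0.17), and no DKO library reached the lowest WT library. With MK-8722 the DKO values were 0.925, 0.687, 0.980 and 0.562 CPM, which overlapped the vehicle values although each exceeded vehicle at its own passage, by 1.14 to 1.44 times. The log2 fold change of 0.44 had a 95% interval of -0.06 to 0.95 (adjusted p = 0.212, and 0.170 with passage as a block). The MK-8722 response was smaller in DKO than in WT by 1.72 on the log2 scale (SE 0.28, adjusted p = 2.53e-04). For torin1 the corresponding difference was -0.78 (SE 0.29, adjusted p = 0.0758), and with passage as a block in the fit it passed the test (log2 -0.79, adjusted p = 0.0287).

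Dusp5, a nuclear phosphatase specific for ERK (chr19:53529109-53542431), moved in opposite directions with torin1 in the 2 genotypes. WT libraries held 65.2, 60.6, 49.1 and 63.1 CPM with DMSO and 53.0, 40.5, 37.1 and 46.7 with torin1. At every passage the torin1 library was the lower one, at 0.668 to 0.814 of its vehicle library, although the groups overlapped, and the log2 fold change was -0.42 (SE 0.11, adjusted p = 0.00266). DKO libraries held 71.3, 62.0, 65.6 and 54.5 CPM with DMSO and 101, 80.8, 82.5 and 76.0 with torin1, without overlap.

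The DKO log2 fold change of Dusp5 with torin1 was 0.43 (SE 0.11, adjusted p = 0.00249), and the response differed from that in WT by 0.85 (SE 0.16, adjusted p = 7.55e-04). With torin1 the level was 1.92-fold higher in DKO than in WT (log2 0.94, SE 0.11, adjusted p = 1.66e-07), while with DMSO the genotypes differed by 0.09 with an interval of -0.15 to 0.33. MK-8722 gave 95.5, 83.7, 82.4 and 100 CPM in WT, above every vehicle library (log2 0.61, SE 0.11, adjusted p = 2.51e-04). In DKO it gave 77.4, 65.8, 81.5 and 77.1 CPM, higher than vehicle at every passage, with a log2 fold change of 0.25 (SE 0.11, adjusted p = 0.122). The difference between these responses was -0.35 (adjusted p = 0.248), and with passage as a block it was called (adjusted p = 0.0079). Dusp5 was also lower in DKO than in WT with MK-8722, by 0.26 on the log2 scale (adjusted p = 0.0466). That call sat on the fold threshold. It was lost with passage number, shared by both lines, as a block, where the log2 difference was -0.23, and in 15 of the 24 fits that left out 1 library. In WT torin1 lay below MK-8722 by 1.03 (SE 0.11, adjusted p = 7.38e-08).

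Dusp6, the cytoplasmic ERK phosphatase (chr10:99263231-99267489), varied with passage in both lines. WT libraries held 24.3, 22.5, 15.9 and 18.3 CPM with DMSO, 22.8, 19.9, 16.2 and 18.9 with torin1, and 32.0, 23.5, 22.1 and 23.8 with MK-8722. DKO libraries held 27.8, 19.6, 20.5 and 16.8 CPM with DMSO, 34.0, 24.6, 24.5 and 22.3 with torin1, and 27.3, 19.1, 21.8 and 16.4 with MK-8722. The passage 8 library was the highest in each DKO group, and the passage 7 library was the highest in each WT group.

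Without passage in the fit no drug effect on Dusp6 was called. The log2 fold change was 0.32 (SE 0.18, adjusted p = 0.183) for MK-8722 in WT and 0.32 (SE 0.18, adjusted p = 0.130) for torin1 in DKO. Within passages the ratio to vehicle was above 1 at all 4 passages in both cases, from 1.04 to 1.39 for MK-8722 in WT and from 1.19 to 1.32 for torin1 in DKO. With passage as a block both effects were called, MK-8722 in WT at 0.33 (SE 0.06, adjusted p = 5.94e-05) and torin1 in DKO at 0.32 (SE 0.06, adjusted p = 3.54e-05). The same fit called both differences in response, that to torin1 at 0.37 (adjusted p = 0.00134) and the MK-8722 one at -0.33 (adjusted p = 0.00648). Without the block these had adjusted p values of 0.360 and 0.594. The call it had without the block was DKO above WT with torin1 (log2 0.44, SE 0.18, adjusted p = 0.0330), and it was lost without the DKO libraries of passage 8 (log2 0.30, adjusted p = 0.0783), WT torin1 replicate 1 or 2, or DKO torin1 replicate 4.

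Spry2, a Sprouty protein that restrains receptor tyrosine kinase signalling (chr14:105891947-105896819, minus strand), rose with MK-8722 in WT and with torin1 in DKO. WT libraries held 15.8, 16.7, 13.7 and 14.4 CPM with DMSO and 24.6, 21.9, 23.7 and 24.9 with MK-8722, without overlap (log2 0.65, SE 0.10, adjusted p = 2.44e-05). In DKO the values were 18.4, 16.6, 15.9 and 14.9 CPM with DMSO and 16.998, 17.1, 17.1 and 16.004 with MK-8722, within the vehicle range (log2 0.03, 95% interval -0.18 to 0.24). The response was smaller in DKO by 0.62 on the log2 scale (SE 0.14, adjusted p = 0.00714).

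Torin1 gave 26.4, 23.9, 19.8 and 18.3 CPM of Spry2 in DKO, above the vehicle library at every passage and overlapping the vehicle range at 1 value (log2 0.43, SE 0.10, adjusted p = 8.17e-04). In WT it gave 19.1, 16.4, 15.1 and 14.6 CPM (log2 0.11, 95% interval -0.10 to 0.32). The difference between these torin1 responses was 0.32 (SE 0.14, adjusted p = 0.137), and it was called with passage as a block (adjusted p = 0.0329). The genotypes differed by 0.12 with DMSO (adjusted p = 0.316). Relative to WT, DKO cells were higher with torin1 (log2 0.44, adjusted p = 4.55e-04) and lower with MK-8722 (log2 -0.50, adjusted p = 1.33e-04).

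Spry4 (chromosome 18, 38586247 to 38601415, minus strand), another Sprouty inhibitor of RAS signalling, was low in WT and lower in DKO. WT libraries held 2.03, 1.90, 1.57 and 1.42 CPM with DMSO (46 to 66 counts) and 3.31, 2.91, 3.61 and 2.44 with MK-8722 (68 to 113 counts), without overlap. The MK-8722 log2 fold change was 0.83 (SE 0.24, adjusted p = 0.0107). Torin1 gave 1.10, 1.47, 1.27 and 0.783 CPM in WT, lower than vehicle at every passage (log2 -0.58, SE 0.26, adjusted p = 0.0559), and this was called with passage as a block (adjusted p = 0.00822).

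DKO libraries held 0.555, 0.722, 0.614 and 0.274 CPM of Spry4 with DMSO (8 to 18 counts), 3.21-fold less than WT (log2 -1.68, SE 0.29, adjusted p = 2.78e-05). Torin1 gave 0.357, 0.336, 0.216 and 0.110 CPM there (3 to 10 counts), a log2 fold change of -1.06 (SE 0.39, adjusted p = 0.0237). This call was lost without DKO DMSO replicate 3 or 4 or DKO torin1 replicate 2 or 3, with an adjusted p of up to 0.0874. With MK-8722 the DKO values were 0.925, 0.412, 0.420 and 0.361 CPM (log2 -0.02, 95% interval -0.74 to 0.70). The difference between the MK-8722 responses was -0.85 (SE 0.42, adjusted p = 0.309) with an interval of -1.73 to 0.03.

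Spry1 (chr3:37639947-37644598), the third Sprouty gene measured, was near the limit of detection. WT libraries held 10, 6, 2 and 9 counts with DMSO, 11, 15, 21 and 13 with torin1 and 11, 6, 15 and 10 with MK-8722. The torin1 libraries lay above all vehicle libraries (log2 1.14, SE 0.42, adjusted p = 0.0229). Only drug-treated WT libraries reached the level of the expression filter, so Spry1 was tested through those groups alone. With no filter the call was lost (log2 1.12, adjusted p = 0.0617). It was also lost without the WT vehicle library of passage 9 (log2 0.86, adjusted p = 0.0885) and without the WT torin1 library of passage 9 (log2 0.96, adjusted p = 0.0837). The 12 DKO libraries held 0 to 3 counts each. Summed over 4 libraries and scaled for depth, WT exceeded DKO 7.65-fold with DMSO (27 against 3 counts, exact 95% counting interval 2.35 to 39.4), 54.0-fold with torin1 (60 against 1, interval 9.33 to 2169) and 20.5-fold with MK-8722 (42 against 2, interval 5.34 to 175). These intervals cover counting error only and leave out the spread between libraries. Because Spry1 passed the filter through WT alone, they are not a test between the genotypes. No drug effect on Spry1 is given in DKO.

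Spred1 and Spred2, membrane proteins that bring the RAS inhibitor neurofibromin to the cell surface, had narrow ranges. Spred1 (chr2:117121374-117182279) lay between 48.4 and 70.1 CPM in all 24 libraries and was called in none of the comparisons. Its drug effects ranged from 0.03 to 0.09 on the log2 scale, and the intervals of all 4 lay within -0.10 and 0.22. Spred1 in DKO lay above WT without overlap with DMSO (log2 0.18, adjusted p = 0.0158) and with MK-8722 (0.17, adjusted p = 0.0256). Both differences were under the fold threshold. Spred2 (chr11:19924375-20024026) was called once, higher in DKO than in WT with torin1 (log2 0.35, SE 0.06, adjusted p = 1.00e-05). In DKO it held 81.3, 78.6, 83.7 and 78.4 CPM with DMSO and 95.8, 90.8, 95.4 and 92.1 with torin1. Those groups did not overlap, with an adjusted p of 0.00236, but the 1.16-fold change was under the fold threshold. Spred2 was also higher in DKO than in WT with DMSO, without overlap and under that threshold (log2 0.22, adjusted p = 0.00194).

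Etv4, a PEA3-group activator (chr11:101769742-101785371, minus strand), was lower in DKO than in WT with DMSO and with MK-8722, while the interval of the difference with torin1 ran from -0.26 to 0.25 on the log2 scale. WT libraries held 101.9, 96.2, 86.9 and 70.1 CPM with DMSO and DKO libraries 65.8, 57.6, 67.9 and 52.4, without overlap (log2 -0.54, SE 0.12, adjusted p = 5.20e-04). Torin1 gave 87.7, 90.0, 97.3 and 82.0 CPM in DKO, above every vehicle library there (log2 0.55, SE 0.12, adjusted p = 5.24e-04), and 104, 98.3, 83.1 and 72.5 in WT (log2 0.01, 95% interval -0.24 to 0.27).

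The difference between the torin1 responses of Etv4 was 0.54 (SE 0.17, adjusted p = 0.0368). The call was lost without WT DMSO replicate 1 or 3, WT torin1 replicate 1 or 2, DKO DMSO replicate 1 or 4, or DKO torin1 replicate 3, with the difference between 0.48 and 0.51 and an adjusted p of at most 0.0761 in those fits. With MK-8722 WT libraries held 122, 116, 109 and 86.0 CPM and DKO libraries 74.6, 63.6, 73.8 and 65.7, again without overlap (log2 -0.64, SE 0.12, adjusted p = 8.91e-05). The MK-8722 effect in WT was narrow across passages, 1.202 to 1.25 times vehicle at all 4, while the unblocked fit gave 0.29 (SE 0.12, adjusted p = 0.0804). With passage as a block it was called (SE 0.04, adjusted p = 3.89e-06). In DKO the ratio was also above 1 at all 4 passages, from 1.09 to 1.25, and the effect was 0.19 (SE 0.12, adjusted p = 0.312). With the block its adjusted p was 0.00104 at 1.14-fold, under the fold threshold, and the difference between the 2 responses was -0.10 (95% interval -0.46 to 0.27).

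Etv5, the second PEA3-group factor (chr16:22381309-22439719, minus strand), held 52.5, 50.7, 44.9 and 35.7 CPM in WT with DMSO and 40.7, 41.2, 35.0 and 31.3 with torin1. The torin1 library was lower at every passage, at 0.775 to 0.876 of vehicle (log2 -0.31, SE 0.15, adjusted p = 0.0804), and this was called with passage as a block (SE 0.06, adjusted p = 2.28e-04). In DKO it held 63.5, 48.4, 50.6 and 40.3 CPM with DMSO and 52.4, 48.0, 52.0 and 44.3 with torin1, with an effect of -0.04 (95% interval -0.36 to 0.27). The difference between these responses was 0.27 (adjusted p = 0.463), called with passage as a block (0.28, adjusted p = 0.0264). DKO exceeded WT with torin1 (log2 0.41, SE 0.15, adjusted p = 0.0213), a call lost without WT torin1 replicate 1 or 2 (adjusted p up to 0.0649). With MK-8722 the difference was 0.31 (adjusted p = 0.0728, and 2.67e-04 with passage number, shared by both lines, as a block). MK-8722 changed Etv5 by -0.01 in WT (95% interval -0.32 to 0.31) and by 0.17 in DKO (-0.15 to 0.48).

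**Figure D2:**
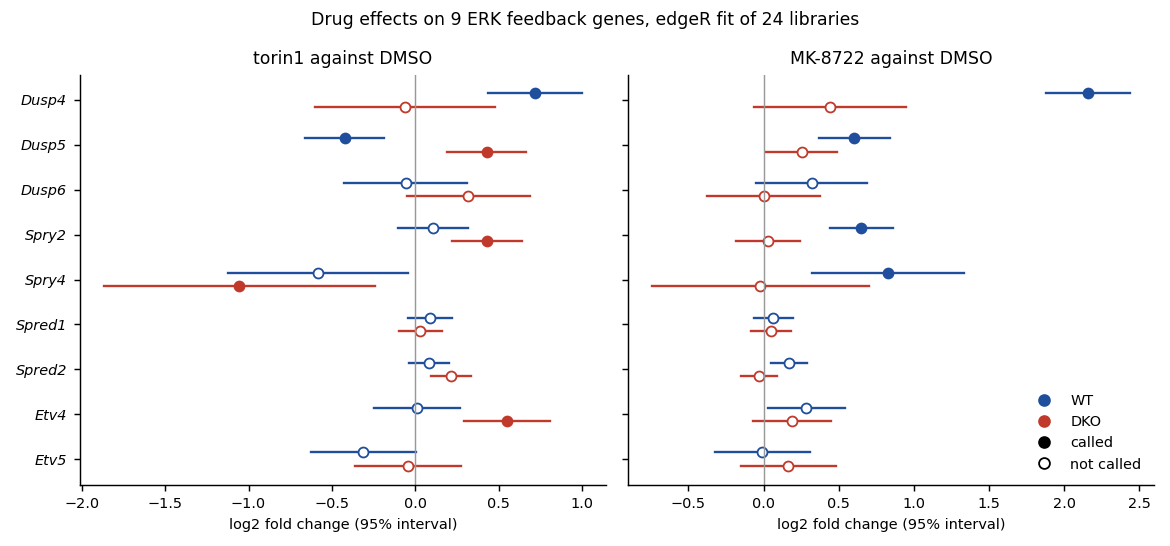
Log2 fold change of each drug against DMSO (x axis) for 9 of the genes (y axis), WT in blue and DKO in red. Bars are 95% intervals from the fit of 24 libraries, filled points were called and open points were not. Spry1 is left out because the DKO libraries held 0 to 3 counts of it. For Dusp5 with torin1 the WT interval lies below 0 and the DKO interval above 0.

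**Figure D3:**
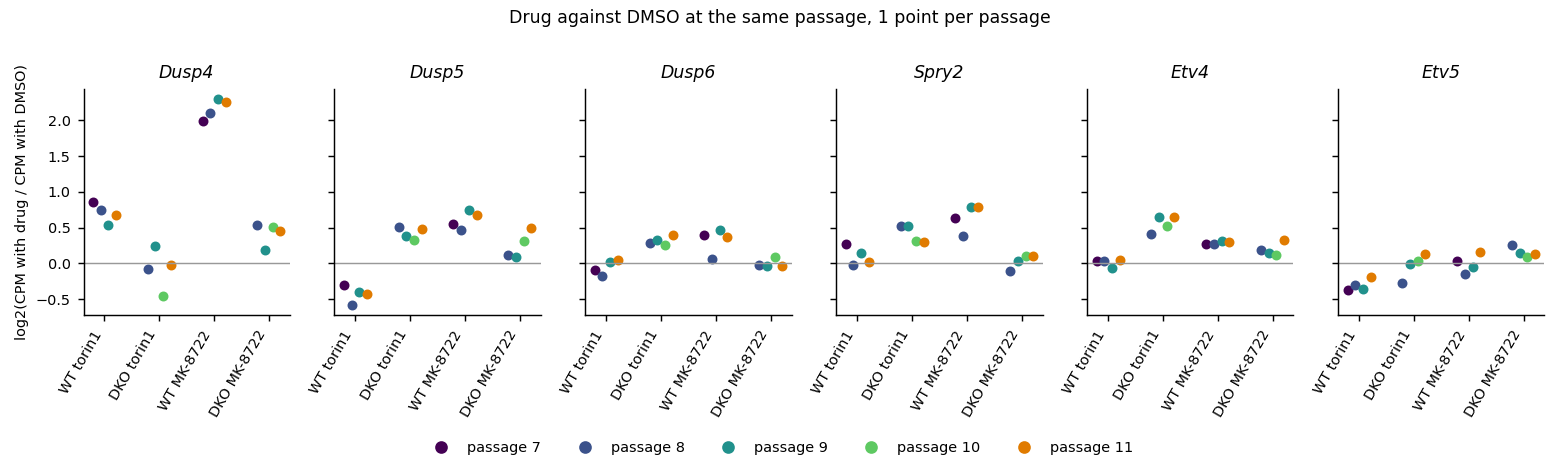
Log2 ratio of drug to DMSO at the same passage (y axis) for 6 genes, with 1 point per passage, by genotype and drug (x axis). Dusp6 and Etv4 have all 4 WT points above 0 with MK-8722, and Etv5 has all 4 WT points below 0 with torin1.

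Spry1 reached the filter's level in 7 WT libraries, all of them drug-treated, and 0 DKO libraries. It entered the test through WT alone and is left out of the counts between genotypes. Of the other 9, 3 were called with DMSO, all lower in DKO (Dusp4, Spry4 and Etv4), where 24.6% of all genes were called lower and 48.2% in either direction. With torin1 7 were called, Dusp5, Dusp6, Spry2, Spred2 and Etv5 higher and Dusp4 and Spry4 lower in DKO, against 51.8% of all genes. With MK-8722 5 were lower in DKO, against 25.4% lower and 48.7% in either direction among all genes. The 5 were Dusp4, Dusp5, Spry2, Spry4 and Etv4, of which Dusp5 was at the fold threshold. The same WT or DKO libraries entered the drug comparisons too, so these counts are not independent of those above.

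Differences in drug response between the genotypes were tested as interaction terms. Spry1 is left out here too. For torin1 2 of the other 9 were called, Dusp5 and Etv4, both with a higher response in DKO, where 4.68% of all genes were called higher and 11% in either direction. With passage as a block there were 6, where 15.4% of all genes were called in that fit, adding Dusp6, Spry2 and Etv5 with a higher and Dusp4 with a lower response in DKO. For MK-8722 2 were called, Dusp4 and Spry2, both with a lower response in DKO, where 4.08% of all genes were called lower and 5.49% in either direction. The block added Dusp5 and Dusp6, also lower, where it called 5.88% of all genes lower and 9.04% in either direction. Over the 9 genes other than Spry1 the median difference was -0.32 for MK-8722, beside 0.01 over all genes tested, and 0.27 for torin1, beside -0.01.

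Set against each other, the drugs differed for 4 of the 10 genes in WT, where 20% of all genes were lower with torin1 and 44.9% were called in either direction. Dusp4, Dusp5, Spry2 and Spry4 were all lower with torin1 than with MK-8722. With passage as a block Dusp6 (log2 -0.38, adjusted p = 3.81e-06), Etv4 (-0.28, adjusted p = 2.10e-06) and Etv5 (-0.30, adjusted p = 2.82e-04) were also lower, which makes 7, where that fit called 20.5% of all genes lower and 47.2% in either direction. Their adjusted p without the block was 0.0699, 0.0569 and 0.0903. In DKO 3 genes differed, against 40.4% of all genes: Spry2 (log2 0.40, adjusted p = 0.00168) and Etv4 (0.36, adjusted p = 0.0151) were higher with torin1, and Spry4 was lower (-1.03, adjusted p = 0.0264), a call lost without the DKO libraries of passage 8 (-0.84, adjusted p = 0.114), DKO torin1 replicate 2 or 3, or DKO MK-8722 replicate 4. The block added Dusp6, higher with torin1 (0.32, adjusted p = 3.35e-05), and called 42.4% of all genes. The drugs differ in target and dose, and each was given at 1 dose.

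Etv4 reads were spread over 12 annotated transcripts, of which the 2 most abundant held 28.0% and 25.5% of the gene's reads. Dusp4, Dusp5, Spry2 and Spry4 had 1 transcript each. Dusp6 had 4, and its main transcript held 71.1% to 79.5% of the reads in the 6 groups. The main Spred1 transcript held 95.5% to 96.65% and the main Etv5 transcript 70.1% to 73.7%.

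Other genes of the pathway were counted from 4 lists. Of 24 genes of the RAS to ERK relay, which runs from receptor adaptors to ERK and RSK kinases and includes RAS GTPase-activating proteins, MK-8722 raised 4 and lowered none in WT, where 10.3% of all genes rose and 16.1% were called in either direction. Rasa2 (17.2 ± 1.54 to 28.1 ± 2.14 CPM, log2 0.71, adjusted p = 6.54e-06) and Rasa1 (57.9 ± 3.33 to 90.8 ± 6.57 CPM, log2 0.65, adjusted p = 3.47e-06), both RAS GTPase-activating proteins, were among them, as was Mapk3, which encodes ERK1 (log2 0.36, adjusted p = 2.05e-04). The list's median log2 fold change was -0.01, as was that of all genes. Torin1 lowered 11 of the 24 and raised 3 in WT, where 20.5% of all genes were called lower and 47.1% in either direction, with a median of -0.14 beside 0.05 over all genes. Rps6ka2, a RSK kinase, fell by 0.92 on the log2 scale and Hras by 0.73, while Mapk3 rose from 116 ± 5.84 to 189 ± 5.77 CPM (log2 0.71, adjusted p = 4.22e-09).

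Of 8 other dual-specificity phosphatases, MK-8722 raised 3 and lowered 1 in WT, where 16.1% of all genes were called, including Dusp1, an immediate early phosphatase of the MAP kinases (27.6 ± 3.47 to 39.5 ± 2.28 CPM, log2 0.51, adjusted p = 9.52e-04). Dusp14 was the 1 that fell (57.9 ± 1.56 to 35.8 ± 2.71 CPM, log2 -0.69, adjusted p = 1.71e-08). Torin1 lowered 4, among them Dusp14 (log2 -1.43), Dusp8 (-1.04) and Dusp9 (-0.58), and raised 1, where 47.1% of all genes were called. In DKO MK-8722 raised none and lowered 1, against 8.69% of all genes called. Dusp2 of this list had means of at most 0.0279 CPM in the DKO groups, so a drug effect on it could hardly be called there. In WT 6 of the 8 were lower with torin1 than with MK-8722 and none was higher, where 20% of all genes were called lower and 44.9% in either direction, and the median log2 difference was -0.63.

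Of 18 other genes known to be induced by ERK, torin1 lowered 9 and raised 3 in WT, where 20.5% of all genes were called lower and 47.1% in either direction. In DKO it lowered 9 and raised 2, where 20.2% of all genes were lower and 43.2% called. Spry3, Etv1 and Epha4 of this list had means of at most 0.144 CPM in the DKO groups, so a drug effect on them could hardly be called there. In WT, Ccnd1, which encodes cyclin D1, fell from 268 ± 18.8 to 125 ± 14.1 CPM (log2 -1.10, adjusted p = 1.17e-08), and Fosl1, which encodes the AP-1 subunit FRA1, fell from 136 ± 25.1 to 76.6 ± 23.6 CPM (log2 -0.83, adjusted p = 5.08e-04). Il17rd, which encodes the receptor-level inhibitor SEF, rose from 12.2 ± 1.43 to 27.4 ± 2.36 CPM (log2 1.16, adjusted p = 2.63e-07). MK-8722 raised 4 and lowered 2 of the list in WT, where 16.1% of all genes were called, with Ier3 (log2 0.58, adjusted p = 6.87e-05) and Spred3 (log2 0.44, adjusted p = 0.00443) higher and Ccnd1 lower (log2 -0.47, adjusted p = 0.0019). The list's median with MK-8722 was 0.01 in WT, against 0.46 for the 10 feedback genes and 0.32 without Spry1. The lists hold different genes, and this gap was not tested.

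Of 18 tested growth factor receptors and ligands, 10 were higher and 4 lower in DKO than in WT with DMSO, where 23.5% of all genes were called higher and 48.2% in either direction. Fgf2 rose from 4.02 ± 0.547 to 20.04 ± 2.72 CPM (log2 2.31, adjusted p = 3.45e-12), the receptor gene Pdgfra from 5.09 ± 0.568 to 25.2 ± 5.70 CPM (log2 2.30, adjusted p = 4.46e-08) and Fgfr2 from 40.2 ± 3.57 to 126 ± 6.33 CPM (log2 1.65, adjusted p = 7.01e-14). The 4 lower ones, named after their values were seen, were Areg (log2 -1.42), Met (-0.90), Egfr (-0.75) and Fgfr1 (-0.28). In WT MK-8722 raised 3 and lowered none of these genes, against 16.1% of all genes called, Fgf7 (log2 0.56), Fgfr1 (0.53) and Hbegf (0.28, adjusted p = 0.0401). Torin1 raised 5 and lowered 3 in WT, against 47.1% of all genes called, with Pdgfra higher (log2 2.06) and Ereg, an EGF receptor ligand, lower (log2 -1.20).

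**Figure D4:**
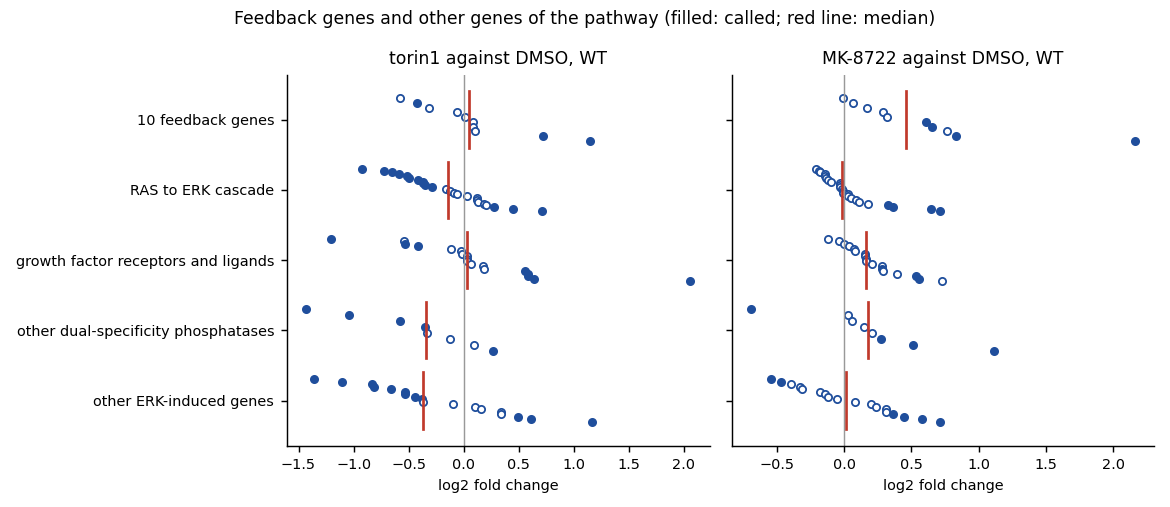
Log2 fold change against DMSO in WT (x axis) of each tested gene of the 10 feedback genes and of 4 other pathway lists (y axis), for torin1 and MK-8722. Points are genes, filled where called, and the red line is the median of the list. The median of the feedback genes lies at 0.05 with torin1 and at 0.46 with MK-8722.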

How the data were processed

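RNA from 24 MEF cultures had been sequenced by the authors as paired reads with UMIs. Per the labels and the study's methods, the authors ran nf-core/rnaseq with STAR and Salmon on GRCm38 with the annotation of Ensembl, and deposited merged tables of estimated counts per gene (Salmon) together with TPM, and per-transcript quantification files. TPM, as deposited, are scaled by the authors for transcript length and library total, and were used here only to order genes within a group. The study's methods also name batch removal with limma, but the labels give a single batch, so none was removed here.

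The estimated counts were rounded to whole numbers. Genes were kept by filterByExpr at a minimum count of 10, libraries were scaled by TMM, and edgeR 4.0.16 (R 4.3.3) fitted 1 mean per group in all 24 libraries with the legacy quasi-likelihood test and trended dispersion, which left 18 residual degrees of freedom at a biological coefficient of variation of 10.7%. Adjusted p-values are Benjamini-Hochberg values over the 15401 genes tested in each of 11 comparisons. Calls needed an adjusted p under 0.05 and a 1.2-fold change, the study's own thresholds. The script was tested on simulated counts. Gene coordinates came from GENCODE M21.

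The members and gene lists were chosen with earlier results of these data known. Named were Tfeb and Tfe3, the 10 members, from each list up to 3 called genes with the largest log2 fold change and an average of at least 2 log2 CPM (for each drug in WT and for DKO against WT with DMSO), and for each member the gene with the most similar profile. Nothing in the labels states that the cultures of a group were independent beyond their passage, so p-values measure the spread between these samples. Totals of 24668921 to 33332562 counts set the precision: Dusp4 in DKO with DMSO, at 0.411 to 0.691 CPM, rests on 12 to 18 counts per library.

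Same-numbered replicates did not pair the samples: over 60 pairs the correlation of their deviations from the group means had a median of 0.04, and 13 pairs exceeded 0.1. Libraries of the same line and passage had a median of 0.157 over 24 pairs, 17 of them above 0.1, so a fit with passage as a block (within line for drug effects) was an alternative. For comparisons between the lines the block was the passage number, shared by both lines. Same-passage libraries of different lines had a median of only 0.02 over 27 pairs, 6 of them above 0.1, so that block has little basis. The other alternatives were a replicate block, other filters, other scalings, DESeq2 1.42.0, the newer edgeR form, other fold thresholds, a transcript length offset, only the groups compared, and leaving out a passage or each library.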

Additional observations from a re-analysis of the deposited data

Results flagged for a closer look

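In 60 groups of 4 libraries, 5 libraries stood apart from the other 3 of their group by Dixon's criterion, which chance meets in about 1 of 20 groups. Dusp6 was 32.0 CPM in the WT library with MK-8722 at passage 7, where the next was 23.8 CPM. Spry2 was 16.0042 CPM in the DKO library with MK-8722 at passage 11, below the next at 16.998 CPM. Spry4 was 0.925 CPM in the DKO library with MK-8722 at passage 8, where the next was 0.420 CPM. Spry1 was 0.115 CPM (3 counts) in the DKO vehicle library of passage 10 and 0.0373 CPM (1 count) in the DKO torin1 library of passage 9, while the other 3 libraries of each group held 0 counts. In such a group any count at all meets the criterion, so the rate of 1 of 20 does not apply to these Spry1 groups.

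Drug responses of 4 members differed between the genotypes in the interaction test, where 11% of all genes were called for torin1 and 5.49% for MK-8722. The torin1 response was higher in DKO than in WT by 0.85 (log2) for Dusp5 and by 0.54 for Etv4. The Etv4 call was lost in 7 of the fits that left out 1 library. For MK-8722 the difference, DKO minus WT, was -1.72 for Dusp4 and -0.62 for Spry2.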

How the results depend on the processing

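These counts include Spry1, which entered the test only through drug-treated WT libraries. The share of all genes called was counted under the passage block in some comparisons and under no other alternative setting. For that reason a change in the number of members called is not read as a result about them. Apart from fits that left out 1 library, 1505 member values were recomputed under other settings. Of these 1424 kept their side of the thresholds, 29 lost a call, 52 gained one and none reversed a called direction, while 35 values called in neither fit changed sign. The passage block moved the members called from 3 to 5 for torin1 in WT, from 2 to 6 for the torin1 response, from 2 to 4 for the MK-8722 response and from 4 to 7 for torin1 against MK-8722 in WT. It also moved them from 4 to 6 for MK-8722 in WT, from 4 to 5 for torin1 in DKO and from 3 to 4 for torin1 against MK-8722 in DKO. Under the replicate block the count for torin1 in WT was 4, for MK-8722 in WT 5 and for DKO against WT with MK-8722 5, and no count moved by over 1.5 times. A 1.5-fold threshold left 1 for torin1 in DKO, 4 for DKO against WT with torin1, 1 for the torin1 response and 1 for torin1 against MK-8722 in DKO. Requiring 10 counts in every library dropped Spry1 and Spry4 and left 2 for DKO against WT with DMSO. Scaling by library size alone gave 5 for DKO against WT with torin1, where Dusp6, Spred2 and Etv5 were lost, and 1 for the torin1 response. For torin1 in WT the DESeq2 Wald test, a fit of only the groups compared and the fit without DKO passage 8 each gave 5, and the cause was not tested. Fits of only the groups compared could not be fitted for Spry1 or Spry4 in some comparisons. When single libraries were dropped, 36 of 2640 values lost a call, 33 gained one and none reversed, and the counts ranged from 2 to 5 for torin1 in WT, 4 to 5 for MK-8722 in WT, 3 to 5 for torin1 in DKO, 6 to 8, 4 to 4 and 5 to 6 for DKO against WT with torin1, DMSO and MK-8722, 1 to 3 for the torin1 response, 4 to 6 for torin1 against MK-8722 in WT and 2 to 5 in DKO. The count for MK-8722 in DKO stayed at 0 and that for the MK-8722 response at 2. Moves of over 1.5 times came for torin1 in WT without WT DMSO replicate 2 or DKO MK-8722 replicate 4 (5 each), for the torin1 response without WT DMSO replicate 1 or 3, WT torin1 replicate 1, DKO DMSO replicate 4 or DKO torin1 replicate 3 (1 each), and for torin1 against MK-8722 in DKO without DKO torin1 replicate 1 (5). Depth limits Spry1, and Spry4 in DKO.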

Other observations

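For each member the gene with the most similar log2 CPM profile over the 24 libraries was found among all genes tested. Pearson's r was 0.986 for Dusp4 with Homer3, 0.965 for Spry4 with Rdh13, 0.936 for Spry1 with Meis3, 0.921 for Spred2 with Ramp3 and 0.905 for Dusp5 with Snx9. The others were Etv4 with Itga6 (0.894), Etv5 with Brwd1 (0.880), Spred1 with Styx (0.855), Spry2 with Slc25a37 (0.849) and Dusp6 with Simc1 (0.790). Each is the best of all genes tested, the libraries fall into 6 groups and 2 lines, and the values are descriptions without a test.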
